A study of Mus musculus with 4 samples.

Results

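The dual-specificity MAP kinase phosphatases chosen as members here were Dusp1, Dusp2, Dusp4, Dusp5, Dusp6, Dusp7, Dusp8, Dusp10, Dusp14 and Dusp16. They were taken by gene name from the non-control spots of the array, with every probe kept, which gave 10 genes with 13 probes among 34821 gene names with 55681 distinct probes. The assay was an RNA immunoprecipitation, in which an antibody on beads pulls a protein out of a lysate together with the RNA bound to it. The antibody was directed against CPEB3, an RNA-binding protein of the cytoplasmic polyadenylation element binding family that regulates the translation of neuronal mRNAs. Signals are therefore a share of the RNA that came down with the beads and not an amount of RNA in the tissue.

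The CPEB3 IgG group had 2 arrays and the control IgG group had 2 arrays. Both groups used lysate of cortex and hippocampus from male C57BL/6 mice, an inbred laboratory strain, aged 8 weeks, kept for 3 h with the antibody beads. The labels give the antibody as the difference between the groups, and in both an amount of 0.2 ug of precipitated RNA was amplified and given the dye Cy3. No array of the starting lysate was analysed here, so each difference is relative to the control antibody. Whether the replicates are separate animals or lysates is not in the labels. The p-values therefore cover the spread between these 4 samples and no more, and that spread may be technical. All 4 arrays were on 1 slide, with the antibodies at different slide positions, so position and antibody cannot be told apart.

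Dual-specificity phosphatases of this family remove the phosphates from both the threonine and the tyrosine of the activation loop of a MAP kinase, which switches the kinase off. Their members differ in which kinases they accept (ERK, JNK or p38) and in whether they sit in the nucleus or the cytoplasm. Several are themselves induced by the pathway that they inhibit, some of them in neurons after synaptic activity. CPEB proteins bind U-rich stretches of mRNA, mostly in the 3′ UTR.

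The probes are 60 bases long, and a window of 30 bases or fewer is shown for some of them. The windows come from the deposited array files and are written 5′ to 3′ in the sense of the mRNA, with T for U. Capitals mark runs of at least 4 T, the pentamer ATTTA and the polyadenylation signal AATAAA. Each window is the stretch of its probe with the most bases in these features, then the most T. It was picked for them and does not represent the whole probe. No window is shown for Dusp5, both Dusp16 probes and the second Dusp7 probe, which held none of these features. The Dusp6 probe held none of them either, and its window, shown all the same, has no capitals. The windows are of Dusp1, Dusp2, Dusp6, Dusp7, Dusp8 at its 3′ probe and Dusp14, which were higher with CPEB3 IgG, and of Dusp8 at its 5′ probe, Dusp4 and Dusp10, which did not pass the test.
Dusp1: gTTTTTacctttATTTATTTTTgtgtaggt
Dusp2: gaaaagttatttgtgttcaactgacATTTA
Dusp6: gggagaattaacttgctccatgatgttcgt
Dusp7: acgttgtttatattgcaAATAAAtattatt
Dusp8, 3′ probe: attatgtaaATTTAcctcctgtctgtcatt
Dusp14: gcctgtgacgTTTTTTaaaactagcaTTTT
Dusp8, 5′ probe: gctctgTTTTTactgtctggtATTTAaact
Dusp4: agacttggtttctgtgtcagTTTTTacttt
Dusp10: ctctaTTTTTaataagtgtaagaagactgt

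Each array held 62976 spots, and 68.0% to 70.0% of probes were well above background with CPEB3 IgG against 73.1% to 73.4% with control IgG. The correlation between replicates was 0.986 for the CPEB3 IgG arrays and 0.977 for the control IgG arrays, and it was 0.925 to 0.939 between antibodies. Array brightness, taken as the 75th percentile over probes, was 507 and 353 units for CPEB3 IgG, against 443 and 425 units for control IgG. A level below is the log2 signal minus the log2 of that percentile, so a level of 0 is the percentile itself. A difference is the level with CPEB3 IgG minus the level with control IgG, and it was called where limma gave an adjusted p under 0.05 over all probes kept. The 7 neuronal markers checked were well above background on all 4 arrays.

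Among the phosphatases, 7 of 13 probes were higher with CPEB3 IgG, 0 were lower and 6 were not called, by limma after adjustment over 40616 probes. At an unadjusted p under 0.05 the count lower was still 0. Genes with any called probe were Dusp1, Dusp2, Dusp6, Dusp7, Dusp8 and Dusp14, which is 6 of 10, and every called probe differed by at least 2-fold. No share of all genes was taken on that count. At the brightest probe of each gene, which leaves out Dusp8, it was 5 of 10 against 18.1% of 27687 genes. Over all probes, 15.8% were called higher and 18.9% were called lower. Among the 22677 kept probes matched to a RefSeq transcript, 22.2% were called higher. The median difference was 1.10 over the 13 phosphatase probes and -0.19 over all kept probes, or -0.07 over those matched to RefSeq. The 2 groups did not overlap at 11 probes, 10 of them higher with CPEB3 IgG, against a background of 28.6% of all probes that did not overlap and were higher. All 13 probes were well above background on all 4 arrays, so none had passed the filter on dim probes through 1 group alone. The precipitated RNA came from a lysate of mixed cells, so the cell type behind a difference cannot be told.

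**Figure D1:**
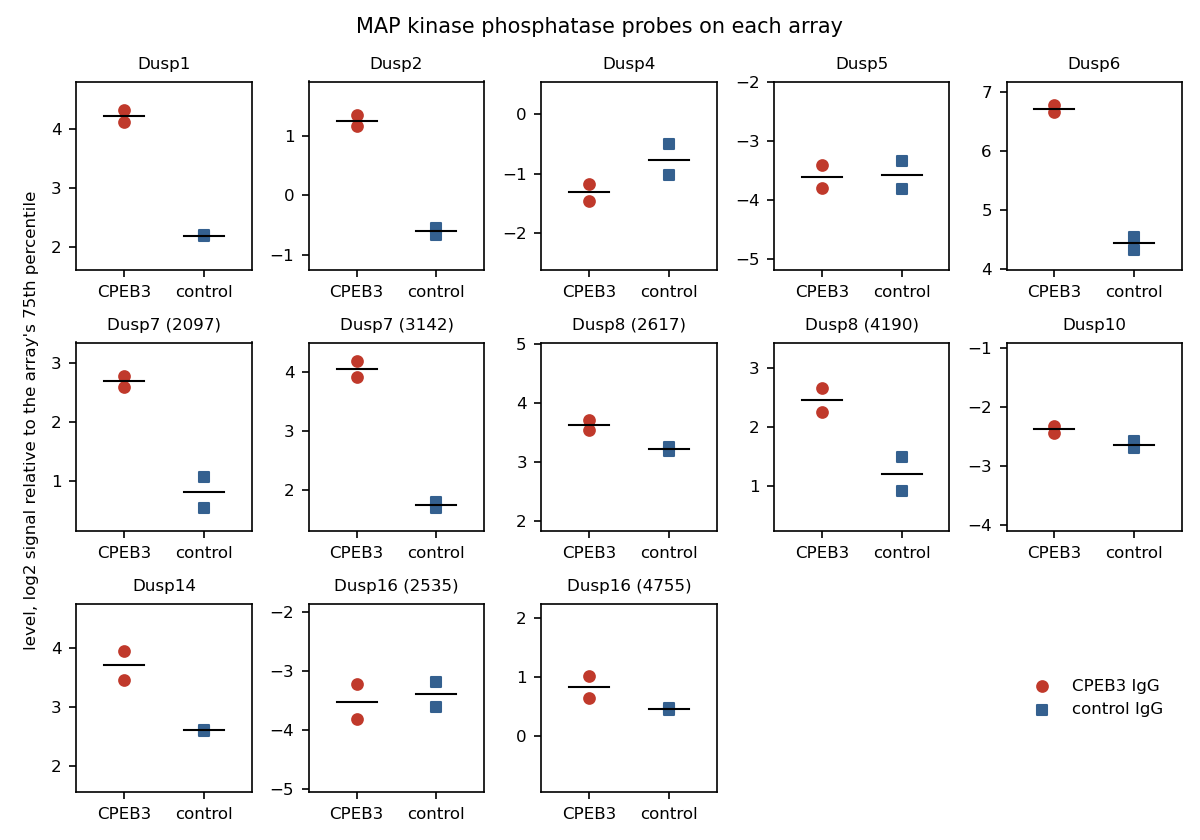
Level (log2 signal minus the array's 75th percentile, vertical axis) of each phosphatase probe on each array, with 1 panel per probe (transcript position in brackets), points for single arrays, lines for group means and CPEB3 IgG left of control IgG; the panels differ in range. Dusp1, Dusp2, Dusp6 and both Dusp7 probes show the widest gaps between the groups, and Dusp5 and the 5′ probe of Dusp16 overlap.

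The classes used from here on were chosen after the values were seen. Of the nuclear phosphatases encoded by inducible genes, 2 of 4 were called higher, against 18.1% of all genes at their brightest probe. Dusp1, an immediate-early gene whose protein acts on p38, JNK and ERK, was read by a probe at position 1624 of its transcript. The files place 11 bases of that probe on the minus strand at chr17:26642526-26642536 (mm9). Its signal was 10075 and 6102 units with CPEB3 IgG, against 2007 and 1945 units with control IgG. Both CPEB3 IgG arrays lay above both control IgG arrays. In levels it averaged 4.21 ± 0.14 with CPEB3 IgG and 2.19 ± 0.01 with control IgG (SD, n = 2 each). That difference of 2.02 (SE 0.17) is a fold of 4.07 (95% interval 2.98 to 5.56) with a limma adjusted p of 0.00535, and 97.1% of kept probes had a smaller one.

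Dusp2, a nuclear phosphatase best known from activated immune cells, was read at chr2:127163930-127163989 on the plus strand. Its signal was 1298 and 800 units with CPEB3 IgG, against 279 and 291 units with control IgG. Again the lower CPEB3 IgG array was above the higher control IgG array. The level was 1.27 ± 0.12 with CPEB3 IgG and -0.61 ± 0.09 with control IgG (SD, n = 2 each), a difference of 1.88 (SE 0.17) or 3.67-fold (2.68 to 5.03), with a limma adjusted p of 0.00556. Because Dusp2 is known from immune cells, markers of microglia, the resident immune cells of the brain, are given beside it. Of 5 microglial markers, 0 were higher and 2 were lower with CPEB3 IgG. Over all genes at their brightest probe, 18.1% were called higher and 18.5% lower. The 2 lower markers were Aif1 at -2.34 (limma adjusted p 0.00645) and C1qa at -1.21 (limma adjusted p 0.0208). Not called were P2ry12 at 0.53, Tmem119 at 0.24 and Cx3cr1 at -0.35, so the markers did not share 1 direction. The summed signal of the 5 was 2690 to 4874 units with CPEB3 IgG and 5088 to 6621 units with control IgG. Their part in the Dusp2 difference was not tested.

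Dusp4 and Dusp5, the other nuclear members, did not pass. Dusp4 (chr8:35882045-35882104, plus strand), a phosphatase of ERK and JNK, had 184 and 157 units with CPEB3 IgG, against 312 and 208 units with control IgG. It was the 1 phosphatase probe whose CPEB3 IgG arrays both lay below both control IgG arrays, while with spike-in scaling the sign of its mean difference changed (0.17, limma adjusted p 0.882). Its difference was -0.55 (95% interval -1.23 to 0.13, limma adjusted p 0.164). Dusp5 (chr19:53615682-53615741, plus strand), a nuclear phosphatase selective for ERK, had 36.2 and 33.0 units with CPEB3 IgG, against 31.5 and 41.7 units with control IgG. The control IgG values lay on either side of the CPEB3 IgG values, and the difference was -0.03 (-0.72 to 0.65, limma adjusted p 0.933).

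The 2 cytoplasmic, ERK-selective phosphatases among the members were higher with CPEB3 IgG at all 3 of their probes, with differences of 1.88 to 2.30. Over all kept probes, 15.8% were called higher. Dusp9, also of this class but not among the members, was at -0.03 (limma adjusted p 0.924). Its groups overlapped, and it was dim at 26.8 to 32.8 units. Dusp6, a feedback inhibitor of ERK that is itself induced by ERK signalling, was read at position 2658 (chr10:98729985-98730044, plus strand). Its signal was 55564 and 35993 units with CPEB3 IgG, against 10420 and 8501 units with control IgG. The groups were far apart, with a level of 6.72 ± 0.07 with CPEB3 IgG and 4.44 ± 0.16 with control IgG (SD, n = 2 each). The difference was 2.28 (SE 0.18), a fold of 4.87 (3.51 to 6.76), with a limma adjusted p of 0.00527.

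Dusp7, the close relative of Dusp6, had 2 probes that overlap by 16 bases on the genome, so they are not independent readings of the transcript. The probe at chr9:106277985-106278044 (plus strand), whose window is printed above, had 9261 and 5347 units with CPEB3 IgG, against 1551 and 1374 units with control IgG. Its level was 4.06 ± 0.19 with CPEB3 IgG and 1.75 ± 0.08 with control IgG (SD, n = 2 each), a difference of 2.30 (SE 0.18) or 4.94-fold (3.52 to 6.94), with a limma adjusted p of 0.00527. This was the largest difference among the 13 phosphatase probes, and 98.2% of kept probes had a smaller one. The other probe, at chr9:106277943-106278000, had 3490 and 2128 units with CPEB3 IgG, against 645 and 893 units with control IgG. It did not overlap either, and its difference was 1.88 (SE 0.24), a fold of 3.68 (2.34 to 5.80), with a limma adjusted p of 0.00948. That call was lost without CPEB3 IgG replicate 1 (1.78, limma adjusted p 0.0608) and without CPEB3 IgG replicate 2 (1.98, adjusted p 0.0502).

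**Figure D2:**
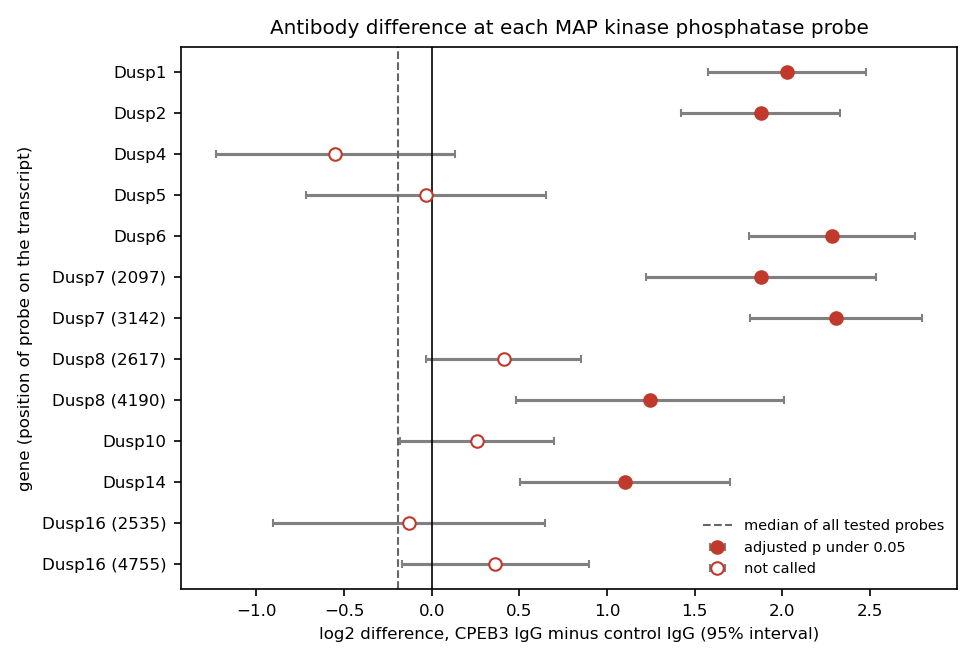
Log2 difference, CPEB3 IgG minus control IgG, of each phosphatase probe (horizontal axis) with its 95% interval from limma, beside the median of all tested probes (dashed line). The 7 called probes, drawn filled, lie between 1.10 and 2.30, and the intervals of the other 6 include 0.

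Among the phosphatases selective for JNK and p38, 1 of 5 probes was called, in 1 of 3 genes. That is near the share of probes called higher, 15.8% of all kept probes or 22.2% of those matched to RefSeq. Dusp8, an enzyme abundant in brain, had 2 probes on the minus strand of chromosome 7 that are 1573 bases apart on 1 transcript. The 5′ probe (position 2617, chr7:149267534-149267593) had 5937 and 4623 units with CPEB3 IgG, against 4232 and 3856 units with control IgG. It did not overlap, but its difference of 0.41 (-0.03 to 0.85) had a limma adjusted p of 0.123. The 3′ probe (position 4190, chr7:149265961-149266020) had 2417 and 2246 units with CPEB3 IgG, against 843 and 1203 units with control IgG. Its level was 2.46 ± 0.29 with CPEB3 IgG and 1.22 ± 0.41 with control IgG (SD, n = 2 each), a difference of 1.25 (SE 0.28) or 2.37-fold, with a limma adjusted p of 0.0338. The call at this probe was lost without CPEB3 IgG replicate 1 (1.45) or 2 (1.04), without control IgG replicate 1 (0.96), with quantile scaling (1.11) and with no filter on dim probes (adjusted p 0.0684).

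Dusp10 (chr1:185898608-185898667, plus strand) had 101 and 65.4 units with CPEB3 IgG, against 74.6 and 65.2 units with control IgG. After scaling, its levels did not overlap, and its difference was 0.26 (-0.18 to 0.70, limma adjusted p 0.281). Dusp16 had 2 probes on the minus strand of chromosome 6, 2220 bases apart on its transcript. The 5′ probe (position 2535, chr6:134668003-134668062) had 35.9 and 37.7 units with CPEB3 IgG, against 36.4 and 46.7 units with control IgG, and overlapped. Its difference was -0.13 (-0.91 to 0.65, limma adjusted p 0.756). The 3′ probe (position 4755, chr6:134665783-134665842) had 1020 and 549 units with CPEB3 IgG, against 601 and 592 units with control IgG. In levels the 2 groups were separate by a small margin, with a difference of 0.36 (-0.17 to 0.90, limma adjusted p 0.222). Neither gene was therefore shown to differ. The intervals allow a difference of -0.18 to 0.70 for Dusp10. For Dusp16 they reach down to -0.91 at the 5′ probe and up to 0.90 at the 3′ probe.

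Dusp14, a small atypical phosphatase without the kinase-binding domain of the others, was read at chr11:83861916-83861975 on the minus strand. Its signal was 7793 and 3888 units with CPEB3 IgG, against 2695 and 2563 units with control IgG. Every CPEB3 IgG value was the higher one, and replicate 1 was the brighter of the pair. The level was 3.70 ± 0.34 with CPEB3 IgG and 2.60 ± 0.01 with control IgG (SD, n = 2 each), a difference of 1.10 (SE 0.22) or 2.15-fold (1.42 to 3.26), with a limma adjusted p of 0.0254. This call was lost without CPEB3 IgG replicate 1 (0.86), without either control IgG replicate (1.11 and 1.10), with no scaling (1.07) and with no filter on dim probes (adjusted p 0.0565).

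The 3 genes with 2 probes also allow the probes to be set against each other within an array, where a single scaling factor per array cancels. The difference at the brighter probe minus that at the other was -0.83 for Dusp8 (-1.68 to 0.01, limma adjusted p 0.150), so the 3′ probe had the larger one. It was 0.42 for Dusp7 (-0.38 to 1.23, adjusted p 0.378) and 0.49 for Dusp16 (-0.65 to 1.63, adjusted p 0.464), by limma over 13024 pairs. Thus 0 of 3 pairs passed, and 0 had an unadjusted p under 0.05, against 14.9% of all pairs called. In Dusp8 and Dusp16, where both probes lie on 1 RefSeq transcript, the 3′ probe had the larger difference in both. For Dusp16 the gap of 0.49 was 0.08 with quantile scaling, 0.07 with cyclic loess and 0.01 without CPEB3 IgG replicate 1. Without CPEB3 IgG replicate 2 it was 0.97. Leaving out control IgG replicate 1 gave 0.75 for Dusp7 and -0.51 for Dusp8, and leaving out control IgG replicate 2 gave 0.10 for Dusp7. Over the 4504 such pairs of all genes the 3′ probe had the larger one in 75.7%, with a median of 0.45 between 3′ and 5′ probe.

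Short sequence features of the probes were counted on the strand as listed. A run of TTTT was in 5 of 13 phosphatase probes and in 30.5% of kept probes, but in 2 of the 7 called probes (Dusp1 and Dusp14). The median difference was 0.41 over the 5 phosphatase probes with TTTT and 1.56 over the 8 without, while over all kept probes it was 0.06 with TTTT and -0.29 without. The hexamer TTTTAT was in 0 of 13 and in 3.71% of kept probes, and TTTTAAT, which contains a TTTT run, was in the Dusp10 probe alone and in 0.901% of kept probes. ATTTA was in 4 of 13, namely Dusp1, Dusp2 and both Dusp8 probes, and in 7.25% of kept probes. AATAAA was in the Dusp7 probe shown and in 11.0% of kept probes. The share of T ran between 20.0% and 46.7% over the 13 probes, highest in Dusp1, with a median of 28.3% over kept probes. Its Spearman correlation with the difference was 0.16 over the 13 phosphatase probes and 0.28 over 40616 kept probes, which share the same 4 arrays, and base composition can also alter hybridisation. A 60-base probe shows a small piece of each transcript, so these counts say nothing of the rest of it.

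The wider pathway was read at the brightest probe of each gene, where 18.1% of 27687 genes were called higher and 18.5% lower, with a median of -0.14. On that footing the phosphatases had 5 of 10 higher and 0 lower, since the brightest Dusp8 probe is the 5′ one, and a median of 0.76. Of the 14 MAP kinases, 5 were higher and 1 was lower, with a median of 0.22. Nlk, the Nemo-like kinase, had 39090 and 24753 units with CPEB3 IgG, against 5547 and 5340 units with control IgG, a difference of 2.55 (SE 0.16, limma adjusted p 0.00527). Mapk7, which encodes ERK5, and Mapk6, which encodes the atypical kinase ERK3, were higher by 1.88 (SE 0.16) and 1.36 (SE 0.15). The other Mapk6 probes were at 1.07, called, and at 0.94, not called. Among the main substrates of the phosphatases, Mapk9 and Mapk8, which encode JNK kinases, were higher by 1.22 and 0.85 (limma adjusted p 0.00912 and 0.0248), but their other probes were at -0.47 for Mapk9 and at -0.26 and -0.44 for Mapk8, not called. Mapk3, which encodes an ERK kinase, was lower at -0.70 (limma adjusted p 0.0328), a call that 8 of 14 alternatives lost. The other Mapk3 probe was at -0.61 and was not called. Mapk14, which encodes a p38 kinase, was at 0.31 and was not called.

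Of the 7 MAP kinase kinases, which activate the MAP kinases, 1 was higher and 2 were lower, with a median of -0.15. Map2k3, an activator of p38, was higher by 2.28 (SE 0.16, limma adjusted p 0.00527). Map2k7, an activator of JNK, was at -1.71 (SE 0.23) and Map2k2, an activator of ERK, at -1.53 (SE 0.16), both lower by limma (adjusted p 0.0101 and 0.00628). Leaving out CPEB3 IgG replicate 1 (-1.64) or 2 (-1.79) ended the Map2k7 call. Spike-in scaling ended the calls of both Map2k7 and Map2k2 (-0.82 for the second gene).

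**Figure D3:**
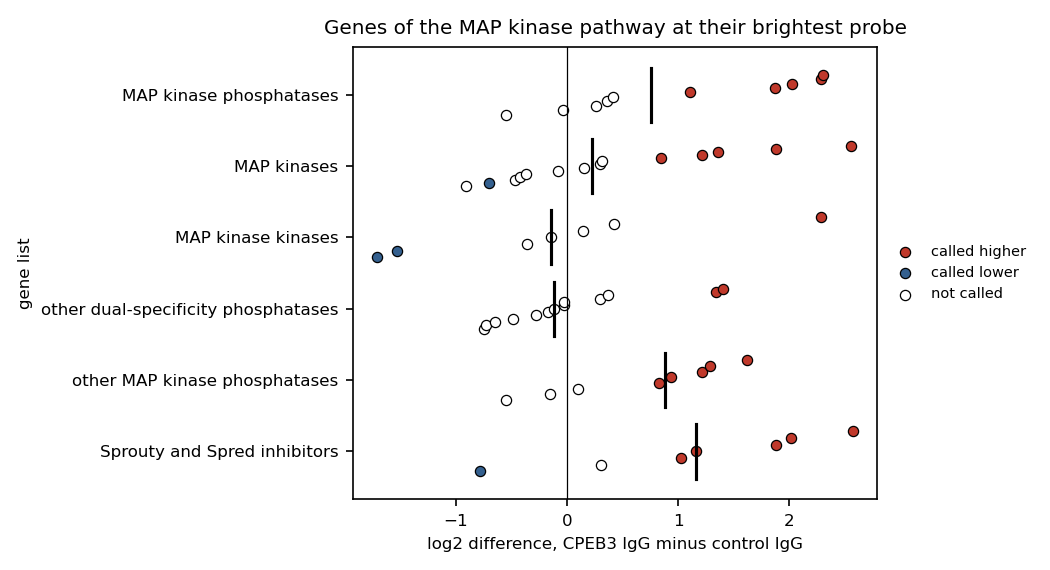
Log2 difference, CPEB3 IgG minus control IgG, at the brightest probe of each gene (points, filled where called) in the phosphatases and the 5 pathway lists, with the list median as a bar. The medians run from -0.15 in the MAP kinase kinases to 1.16 in the Sprouty and Spred inhibitors, against -0.14 over all genes.

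Other inhibitors of MAP kinase signalling were read in the same way. The Sprouty and Spred proteins, which restrain Ras and ERK signalling upstream, had 5 of 7 higher and 1 lower, with a median of 1.16. Spred1 had 10362 and 7000 units with CPEB3 IgG, against 1506 and 1424 units with control IgG. Its difference was 2.58 (SE 0.15, limma adjusted p 0.00527) at position 3906, against 1.94 at position 2876 and 0.35, not called, at position 1340. Spry3 and Spry1 were higher by 2.02 (SE 0.29) and 1.88 (SE 0.17), Spred2 by 1.16 and Spry4 by 1.02 (limma adjusted p 0.0113, 0.00561, 0.0119 and 0.0400). Spred3 was lower at -0.78 (adjusted p 0.0289), but in 3 of 14 alternatives only, and Spry2 was at 0.30, not called. The Spry3 difference was 1.06 with normexp background correction, and its call was lost without CPEB3 IgG replicate 1 (1.77, limma adjusted p 0.0605). Spred2 passed in 11 of 14 alternatives and lost its call without either CPEB3 IgG replicate (1.07 and 1.25) and with no scaling (1.12).

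Phosphatases of other families that act on MAP kinases had 5 of 8 higher and 0 lower, with a median of 0.88. Ppm1d, a serine and threonine phosphatase of p38, was higher by 1.62 (SE 0.20, limma adjusted p 0.00889). Ptprr and Ptpn5, tyrosine phosphatases that act on ERK in neurons, were higher by 1.28 (SE 0.16) and 1.21 (SE 0.16), with limma adjusted p of 0.00911 and 0.00945. For Ptpn5 the other probes, nearer the 5′ end, were at -0.48 and -1.49 and were not called. Ppp2cb, a catalytic subunit of protein phosphatase 2A, and Ppm1b were higher by 0.93 and 0.83 (limma adjusted p 0.0175 and 0.0236). The other Ppm1b probe, nearer the 5′ end, was at 0.39 and was not called. The remaining dual-specificity phosphatases had 2 of 13 higher and 0 lower, with a median of -0.12. Those were Dusp11, which acts on RNA 5′ ends, at 1.40 (SE 0.20) and Dusp12 at 1.34 (SE 0.18), with limma adjusted p of 0.0111 and 0.0105. For Dusp21 no probe passed the filter on dim probes. Of the 14 alternatives at the same threshold, Mapk8 and Ppm1b passed in 8, and Ppp2cb and Spry4 in 9. Dusp11, Ptpn5 and Mapk9 passed in 12, with the call lost without either CPEB3 IgG replicate (limma adjusted p 0.0511 to 0.0652). Mapk6, Dusp12, Ppm1d and Ptprr passed in 13, with the call lost without CPEB3 IgG replicate 1 (adjusted p 0.0501 to 0.0582). With normexp background correction the difference was 0.67 for Dusp11, 1.66 for Map2k3 and -0.78 for Map2k7, all still called. No test compared these lists.

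Some markers of cell types were also called, where 18.1% of all genes at their brightest probe were called higher and 18.5% lower. Slc1a3, an astrocyte glutamate transporter, was higher by 3.16 (limma adjusted p 0.00809) while Aldh1l1, also an astrocyte marker, was lower at -3.03 (adjusted p 0.00527). The summed signal of the 5 astrocyte markers was 18395 to 44127 units with CPEB3 IgG and 15539 to 20601 units with control IgG. Of 5 oligodendrocyte markers, Cnp was lower at -1.80 (adjusted p 0.00858) and 0 were higher, with a sum of 33944 to 58500 units with CPEB3 IgG and 50858 to 64653 units with control IgG. Of 7 neuronal markers, Rbfox3 was higher by 0.70 (adjusted p 0.0353) and 0 were lower, with a sum of 111348 to 155670 units with CPEB3 IgG and 123004 to 124907 units with control IgG. Of the 3 endothelial markers measured, 0 were called, with a sum of 1743 to 3228 units with CPEB3 IgG and 1865 to 2347 units with control IgG. No marker measured was below background on any array. Their part in the differences of the phosphatases was not tested.

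The scaling between arrays moved all probes together. Among the calls over all probes, 45.5% were higher with the 75th percentile, 66.2% with median scaling and 87.0% with the mean of the spike-in spots. The median difference over all kept probes was 0.10 with median scaling and 0.52 with spike-in scaling. Relative to that median, the 13 phosphatase probes had a median 1.29 higher with each of these scalings. That value is the same by construction, since each of them shifts the differences of all probes by 1 amount. The median was 0.98 higher with quantile scaling and 1.04 higher with cyclic loess, which do not share that limit. Dusp1, Dusp2, Dusp6 and the brighter Dusp7 probe passed in all 14 alternatives at the same threshold, with differences between 1.62 and 3.02. The signs of Dusp4, Dusp5 and the 5′ probe of Dusp16 changed with scaling, so no direction is given for them.

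**Figure D4:**
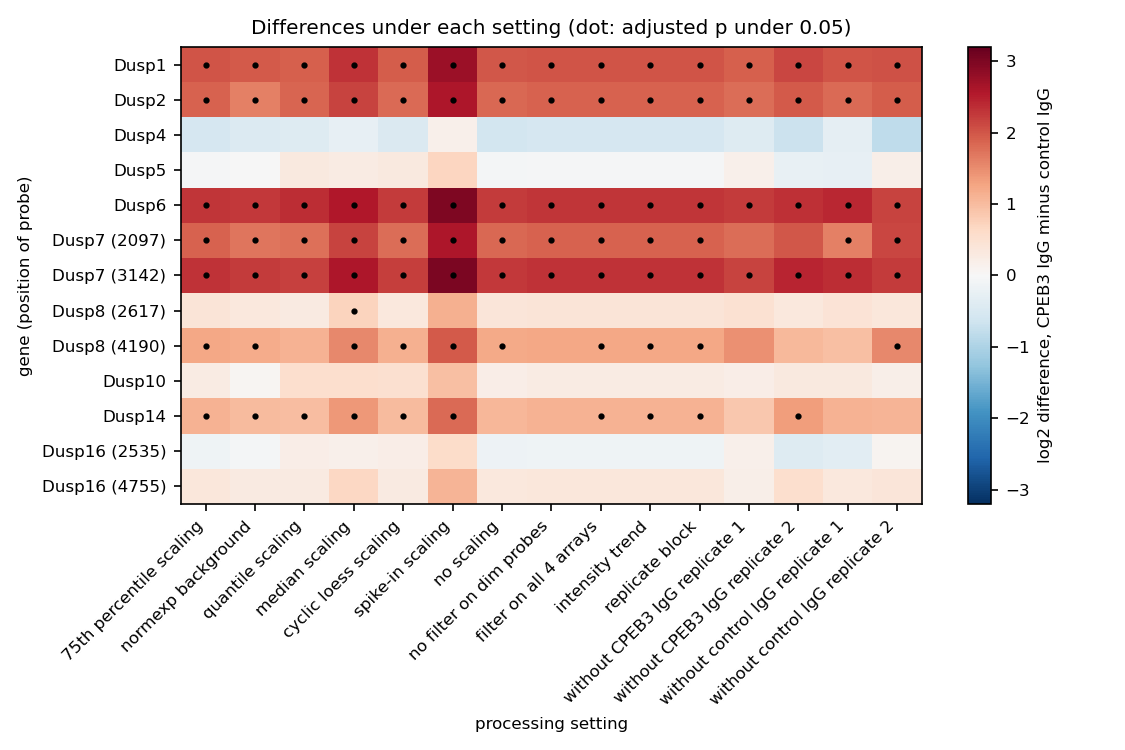
Log2 difference, CPEB3 IgG minus control IgG, as a colour, for each phosphatase probe (rows) under the 75th percentile scaling and the 14 alternatives at the same threshold (columns), with a dot where the adjusted p was under 0.05. Dusp1, Dusp2, Dusp6 and both Dusp7 probes stay at or above 1.61, and Dusp5 and the 5′ probe of Dusp16 lie on both sides of 0.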

How the data were processed

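RNA precipitated with CPEB3 IgG (2 arrays) or control IgG (2 arrays) was measured on 1-colour Agilent arrays, grouped by the labelled antibody. The deposited spot intensity was made with Agilent Feature Extraction 10.5.1.1, which subtracted background and removed spatial trends within each array and did not normalise between arrays, per the file headers.

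Control spots (3671) and spots flagged as outliers were left out, spots of 1 probe were averaged, and 63 probes lacking a value on some array were not fitted. Log2 signals minus the 75th percentile of the array were fitted with limma 3.58.1 in R 4.3.3 (lmFit, eBayes, no block), which was tested on simulated data. A probe was kept if it was well above background on 2 or more arrays (40616 probes). P-values were adjusted by Benjamini-Hochberg over all of them. Pairs of probes were fitted in the same way on within-array log2 ratios. All 95% intervals use the moderated degrees of freedom.

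Alternatives were normexp (offset 50), 5 other scalings, 2 other filters, an intensity trend, a replicate block, each array left out, the brightest or mean probe per gene, and stricter thresholds. Symbols were matched to RefSeq accessions (27509 probes), with the GRCm38 assembly for names only. Coordinates are those of the files on mm9. Positions in exons and UTRs were not analysed here, since no annotation on that build was used.

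The members, lists and tests were chosen with earlier results of these data known. The rule named all members and, per pathway list, at most 3 called genes with the largest differences. The classes of phosphatases and the further pathway genes and markers named (among them Dusp9, Mapk3, Mapk8, Mapk9, Mapk14, Ppp2cb, Ppm1b, Spred2, Spred3, Spry2 and Spry4) were chosen after their values were seen. Some genes of the lists are not reported here by name. The number of arrays limits the precision, and 0 spots were saturated.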

Additional observations from a re-analysis of the deposited data

How the results depend on the processing

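Of 182 refits of single phosphatase probes, 156 kept direction and side of the threshold, 12 lost the call, 1 gained it (the 5′ probe of Dusp8 with median scaling, 0.70) and 13 changed sign. Sign changes fell on 3 probes that were not called: Dusp4 with spike-in scaling (0.17), Dusp5 with quantile (0.31), median (0.26), cyclic loess (0.32) and spike-in scaling (0.68), and the 5′ probe of Dusp16 with the same scalings (0.21, 0.16, 0.21 and 0.59). With 1 array left out, Dusp5 ranged from -0.26 to 0.20 and that Dusp16 probe from -0.42 to 0.17, positive without CPEB3 IgG replicate 1 (0.16 and 0.17) and without control IgG replicate 2 (0.20 and 0.08). Of 308 refits of pathway genes, 249 kept direction and call and 58 lost the call, and Mapk3 changed sign with spike-in scaling (0.011). The cause of these changes was not tested. With the mean of its probes, Dusp8 was called at 0.83. Phosphatase probes called higher numbered 4 to 6 with 1 array left out (7 with all arrays), fewest without CPEB3 IgG replicate 1, and 5 to 8 in the other alternatives; 0 were lower in any. Over all probes, 6423 were called higher and 7688 lower. The higher count was 3937 with no scaling, 2735 at an adjusted p under 0.01 and 2347 to 4682 with 1 array left out, where fewer samples enter. The lower count was 4316 with median scaling, 966 with spike-in scaling, 4702 with no filter, 2015 at an adjusted p under 0.01 and 2077 to 5375 with 1 array left out. Pairs of phosphatase probes called numbered 0 throughout. The labels give the groups the same replicate numbers without tying them to an animal or day, and deviations of same-numbered arrays correlated at 0.36. With the replicate number as a block, 7 phosphatase probes were called higher and 0 lower, and over all probes 6867 and 8981.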
